A study of Mus musculus with 9 samples.

Results

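The genes described here encode 7 transcription factors of activated and effector lymphocytes: *Batf*, *Batf3*, *Irf4*, *Irf8*, *Bhlhe40*, *Prdm1* and *Nfil3*. They were taken as a list of symbols and matched to the Ensembl identifiers of the count table, where all 7 were found among 47937 identifiers. RNA was sequenced from CD4+ T cells purified on magnetic beads from C57BL/6 spleens, as 9 libraries. Each of the 3 groups has libraries 1, 4 and 5. The first group was resting cells, and the others, labelled Th0, were activated by plate-bound antibodies to CD3 and CD28 after 15 min with the solvent DMSO (control cells) or with TEPP-46 at 50 to 100 µM (TEPP-46 cells), a small molecule that activates the glycolytic enzyme pyruvate kinase M2. The comparisons ask how the genes differ with activation and, among activated cells, with TEPP-46. The sources used here do not give the duration of activation, any culture of the resting cells or the TEPP-46 concentration of each library. The TEPP-46 libraries may therefore differ in dose. No label says that replicates are separate animals, so a p-value reflects only how far these libraries vary, which may be technical.

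BATF and BATF3 are small basic leucine zipper proteins that pair with JUN proteins and, with IRF4 or IRF8, bind composite DNA elements that join an AP-1 site to an interferon regulatory factor site. In T cells, IRF4 and BATF are induced by antigen receptor signalling and drive expansion and effector programmes. BHLHE40 is a basic helix-loop-helix repressor that sustains cytokine production, and NFIL3 is a basic leucine zipper repressor. *Prdm1* encodes BLIMP-1, which promotes terminal effector differentiation and is opposed by BCL6 and BACH2. IRF4, IRF8 and BLIMP-1 also act in B cells and plasma cells, and BATF3 and IRF8 in dendritic cells.

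In GRCm38 with the GENCODE M21 annotation, *Batf* (ENSMUSG00000034266.5 in the table) spans chromosome 12 from 85686669 to 85709087 on the plus strand. *Batf3* (ENSMUSG00000026630.9) spans chromosome 1 from 191097847 to 191108945, plus strand. *Irf4* (ENSMUSG00000021356.9) and *Nfil3* (ENSMUSG00000056749.7) both lie on chromosome 13, the first from 30749226 to 30766976 on the plus strand and the second from 52967209 to 52981073 on the minus strand. *Irf8* (ENSMUSG00000041515.9) spans chromosome 8 from 120736358 to 120756694, plus strand. *Bhlhe40* (ENSMUSG00000030103.11) spans chromosome 6 from 108660629 to 108666925, plus strand, and *Prdm1* (ENSMUSG00000038151.12) spans chromosome 10 from 44437177 to 44528501, minus strand.

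RefSeq start-site windows of 300 bases (GRCm38.p6) were matched for 6 of the 7 genes, with 2 windows for *Irf8*. The windows of *Batf3*, *Irf8* and *Irf4* are shown because these genes differed between groups, and that of *Batf* because it passed the edgeR test in no comparison. They are chr1:191098164-191098463 for *Batf3*, chr8:120736108-120736407 for the first *Irf8* start, chr13:30748983-30749282 for *Irf4* and chr12:85686470-85686769 for *Batf*, all on the plus strand, 5′ to 3′, from 250 bases before to 50 bases after the start. Capitals mark motif matches.
Batf3: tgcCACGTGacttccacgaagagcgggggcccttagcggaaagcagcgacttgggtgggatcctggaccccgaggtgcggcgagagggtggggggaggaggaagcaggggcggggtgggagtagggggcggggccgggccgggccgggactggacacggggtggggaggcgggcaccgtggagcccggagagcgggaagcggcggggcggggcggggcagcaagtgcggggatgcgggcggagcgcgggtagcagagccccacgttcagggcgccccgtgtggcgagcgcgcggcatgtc
Irf8: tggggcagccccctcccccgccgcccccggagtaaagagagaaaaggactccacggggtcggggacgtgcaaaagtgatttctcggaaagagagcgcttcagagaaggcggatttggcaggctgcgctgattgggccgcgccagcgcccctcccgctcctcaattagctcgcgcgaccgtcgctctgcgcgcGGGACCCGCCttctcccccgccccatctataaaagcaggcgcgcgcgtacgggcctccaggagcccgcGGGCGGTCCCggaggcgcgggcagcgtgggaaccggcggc
Irf4: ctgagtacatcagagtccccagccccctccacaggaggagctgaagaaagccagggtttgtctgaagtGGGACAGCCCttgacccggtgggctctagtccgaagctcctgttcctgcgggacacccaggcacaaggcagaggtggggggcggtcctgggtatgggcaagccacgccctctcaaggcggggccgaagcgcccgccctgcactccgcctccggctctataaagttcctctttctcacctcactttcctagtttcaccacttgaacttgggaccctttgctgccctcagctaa
Batf: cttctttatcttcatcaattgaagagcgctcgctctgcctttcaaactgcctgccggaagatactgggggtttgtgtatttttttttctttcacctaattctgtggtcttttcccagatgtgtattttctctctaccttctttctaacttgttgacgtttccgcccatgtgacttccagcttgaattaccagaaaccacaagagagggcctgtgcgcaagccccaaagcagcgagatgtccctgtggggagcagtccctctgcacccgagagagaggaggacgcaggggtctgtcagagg

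The motifs were searched on both strands in these windows and in 32851 RefSeq windows of 300 bases. Those 32851 windows, called all windows below, do not cover every gene. The E-box CACGTG, which BHLHE40 can bind, was found in the *Batf3* window, starting 247 bases before the start site, and in 7.15% of all windows. The NF-kappaB pattern (GGGA, any 4 bases, CC) was found once in the *Irf4* window and at 2 places in the first *Irf8* window, as against 20.7% of all windows with a match. The AP-1 element TGANTCA occurred in the *Prdm1* window, as TGAATCA, and in 7.81% of all windows. That window (chr10:44458699-44458998, minus strand) lies inside the annotated gene, whose span on the minus strand begins at 44528501. The *Batf3* window also lies wholly inside its gene, which begins at 191097847. The tandem IRF element (GAAA, any 2 bases, GAAA), the ETS-IRF element (GGAA, any 2 bases, GAAA) and the NFIL3 element TTANGTAA, present in 3.44%, 2.72% and 2.32% of all windows, had no match in the members' windows. A match describes letters only.

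Library totals ran from 2397304 counts (TEPP-46 library 4) to 5030643 counts (resting library 1). All 16 T cell identity markers were detected in every library. Summed B cell markers reached 2590 to 3988 CPM (counts per 1000000 counts of the library, TMM-scaled) in resting cells, 236 to 264 CPM in control cells and 757 to 1361 CPM in TEPP-46 cells, and summed plasma cell markers were at 766 to 3094, 9.12 to 12.6 and 9.35 to 31.5 CPM. Some libraries stood apart: resting library 1 correlated with the other resting libraries at 0.938 and 0.937, against 0.977 between those, and TEPP-46 library 4 correlated with TEPP-46 libraries 1 and 5 at 0.818 and 0.896, whereas TEPP-46 library 1 correlated with the control libraries at 0.919 to 0.922. The summed level of 14 ribosomal protein genes was 13000 CPM in TEPP-46 library 1, 2874 in library 4 and 6797 in library 5. *Malat1*, a nuclear RNA, was at 2532, 12290 and 12820 CPM in the same libraries. The part of these features in the results below was not tested.

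On activation, 5 of the 7 genes rose, by 5-fold or more in the edgeR fit: *Batf3*, *Irf4*, *Irf8*, *Bhlhe40* and *Nfil3*. None fell, and *Batf* and *Prdm1* did not pass the test. Among the 12536 genes tested, 31.2% were called in either direction, 15.5% higher and 15.8% lower in control than in resting cells. All 5 had control libraries entirely above the resting libraries, as 59.2% of all genes tested had groups that did not overlap in either direction. The median log2 fold change was 2.40 over the 7 genes and -0.04 over all genes tested.

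**Figure D1:**
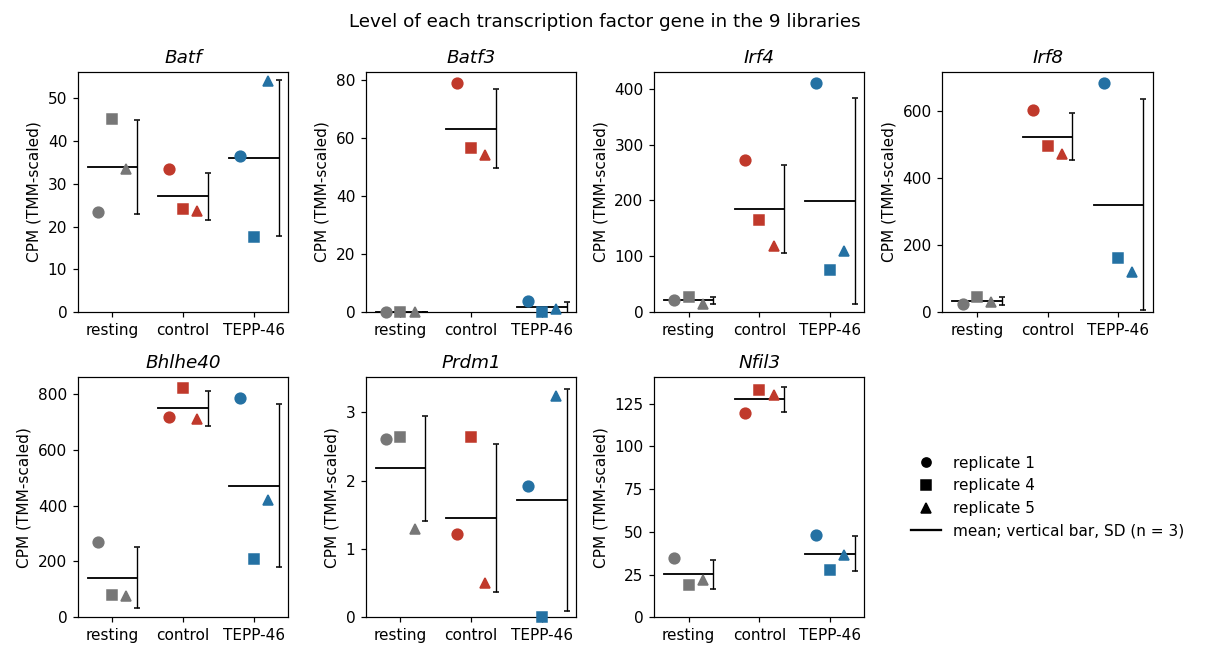
Level of each gene in CPM (vertical axis, TMM-scaled, from 0, a separate scale per gene) in resting, control and TEPP-46 cells; points are libraries, horizontal lines means and vertical bars SD (n = 3). *Batf3* stood at 54.2 to 78.7 CPM in the control libraries and at 3.85 CPM or less in all others, and *Nfil3* was higher in every control library than in any other.

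*Batf3*, which encodes a BATF relative that heterodimerises with JUN proteins, was close to absent from resting cells. Resting libraries 1, 4 and 5 held 0, 0 and 1 counts of it (0, 0 and 0.216 CPM), and the control libraries held 321, 236 and 215 counts (78.7, 56.6 and 54.2 CPM). The groups did not overlap. The pooled counts, 772 against 1, gave a ratio of 846 with a 95% counting interval of 151 to 33460 (exact, counting error only), and the edgeR test gave an adjusted p of 0.00025. *Batf3* passed the filter on low counts only through the control libraries, where it was high, so its edgeR tests depend on that level. In TEPP-46 libraries 1, 4 and 5 the gene held 14, 0 and 3 counts (3.85, 0 and 0.971 CPM), so 14 of the 17 counts came from library 1. Every TEPP-46 library was below every control library.

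Against control cells, *Batf3* fell in TEPP-46 cells by a pooled ratio of 33.9 (772 against 17 counts, 95% counting interval 21.0 to 58.5). The fitted log2 fold change was -5.14 ± 0.68 (SE, n = 3 per group, edgeR adjusted p = 0.00252). It was -6.79 (adjusted p = 0.00015) without TEPP-46 library 1, the library that held most of the counts. TEPP-46 and resting cells overlapped, both holding libraries at 0. Their difference had a pooled ratio of 24.98 with a counting interval of 3.91 to 1044 (17 against 1 counts) and missed the threshold in edgeR (adjusted p = 0.0598), but passed it in DESeq2 (0.00956), without the filter on low counts (0.00763) and without TEPP-46 library 4 (0.0153).

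*Batf*, the founding member of the family, differed from its relative. It was at 23.3, 45.2 and 33.3 CPM in the resting libraries, 33.4, 24.0 and 23.7 CPM in control, and 36.6, 17.7 and 54.0 CPM in TEPP-46 libraries. All 3 groups overlapped. The log2 fold change was -0.33 ± 0.39 with activation (adjusted p = 0.56, 95% interval -1.196 to 0.54), 0.42 ± 0.40 for TEPP-46 against control (adjusted p = 0.475, interval -0.45 to 1.30) and 0.10 ± 0.39 for TEPP-46 against resting cells (adjusted p = 0.903, interval -0.77 to 0.97), all with n = 3 per group in edgeR. The intervals for activation and for TEPP-46 against control leave room for differences of over 1 log2 unit. That for TEPP-46 against resting leaves room for differences of up to 0.97. With library quality weights in limma-voom, *Batf* was called higher in TEPP-46 than in control cells (0.91, adjusted p = 0.013).

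*Irf4* encodes the interferon regulatory factor most closely tied to antigen receptor strength. It was at 21.9, 27.2 and 15.1 CPM in the resting libraries and at 272, 165 and 119 CPM in the control libraries. Every control library was above every resting library. The gene rose with activation by 3.11 ± 0.61 log2 units, or 8.65-fold (edgeR adjusted p = 0.00465, 95% interval 1.75 to 4.47). The TEPP-46 libraries were at 410, 74.8 and 110 CPM. Library 1 was above all control libraries, and libraries 4 and 5 were below all of them.

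The log2 difference of *Irf4* between TEPP-46 and control cells was 0.10 ± 0.56 (edgeR adjusted p = 0.913, 95% interval -1.13 to 1.34). Without TEPP-46 library 1 it was -1.01 ± 0.37 (adjusted p = 0.0586). Its TEPP-46 libraries lay above all resting libraries, and it rose by 3.22 ± 0.62 log2 units against resting cells (9.30-fold, adjusted p = 0.012). That call was lost without resting library 5 (adjusted p = 0.0573), and the difference was 2.11 (adjusted p = 0.0073) without TEPP-46 library 1.

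*Irf8* encodes a close relative of IRF4 that shares its partners. It was at 23.7, 45.2 and 31.4 CPM in the resting libraries and at 604, 496 and 471 CPM in the control libraries. The groups did not overlap. The gene rose with activation by 3.97 ± 0.62 log2 units, or 15.7-fold (edgeR adjusted p = 0.00164). The TEPP-46 libraries were at 684, 161 and 120 CPM, with library 1 above the controls and libraries 4 and 5 below them.

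The log2 difference of *Irf8* between TEPP-46 and control cells was -0.70 ± 0.55 (edgeR adjusted p = 0.391, 95% interval -1.92 to 0.52). It became -1.91 ± 0.29 (adjusted p = 0.00118) without TEPP-46 library 1, and -1.83 (adjusted p = 0.000259) with library quality weights. Against resting cells *Irf8* rose in TEPP-46 cells by 3.27 ± 0.60 log2 units (9.65-fold, adjusted p = 0.0105), a call lost without resting library 5 (0.0511) and a value of 2.06 (0.00262) without TEPP-46 library 1. B cells and dendritic cells also express *Irf8*, and B cell markers varied among these libraries. *Cd79a*, of the B cell receptor, was at 12.9 to 40.1 CPM in resting, 1.92 to 2.27 in control and 3.58 to 60.5 in TEPP-46 libraries, with the highest value in library 4. Other B cell markers were less low in the control libraries. *Cd79b* was at 3.84 to 8.82 CPM (7.85 to 29.8 in resting cells) and *Ighm* at 217 to 239 CPM (1654 to 1815 in resting cells). The B cell factor *Ebf1* was at 3.36 to 5.29 CPM (1.01 to 7.39 in resting cells). The sum of 12 dendritic cell markers was 440.3 to 1012 CPM in resting, 440.7 to 713 in control and 487.6 to 1718 in TEPP-46 libraries, again highest in library 4. Most of that highest sum came from *Cd74* (1303 CPM) and *H2-Ab1* (227 CPM). In the same library *Itgax*, *Xcr1* and *Cd209a* held 0 counts, so the sum is no measure of dendritic cell content. Among single markers, *Itgax* was at 0 in all control libraries, and *Clec9a* and *Siglech* held at most 1 count in any library. Others were detected: in the control libraries *Zbtb46* was at 8.16 to 16.7 CPM and *Xcr1* held 1 to 3 counts. In TEPP-46 library 4, *Flt3* was at 12.2 CPM and *Wdfy4* at 22.7 CPM. The part of these markers in the *Irf8* values was not tested. In bulk libraries, fewer cells of a type and less RNA per cell cannot be told apart.

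**Figure D2:**
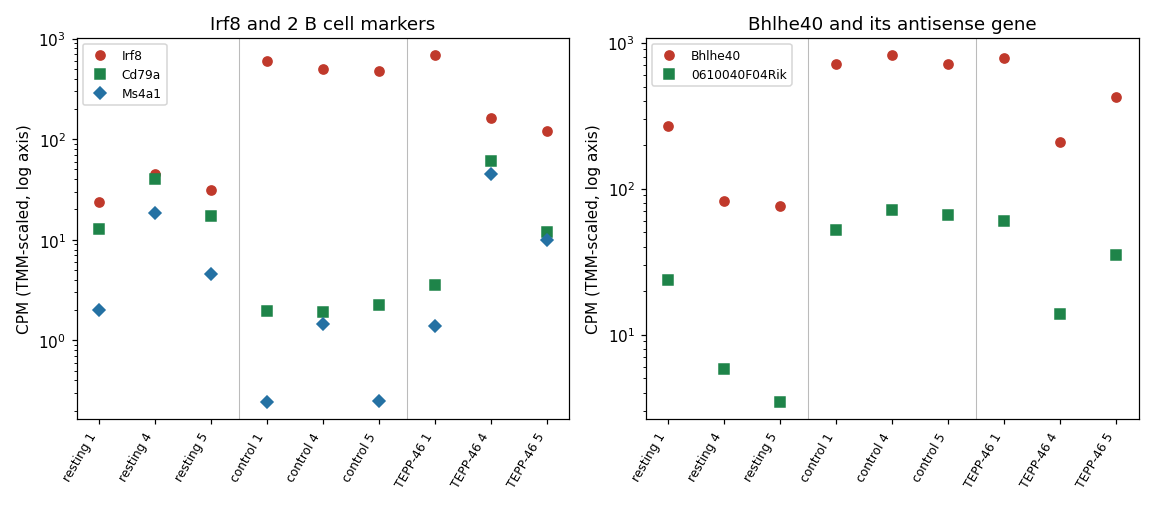
CPM (vertical axes, log scale) in each of the 9 libraries for *Irf8* with the B cell markers *Cd79a* and *Ms4a1* (left) and for *Bhlhe40* with its antisense gene (right); points are single libraries. The 2 B cell markers plotted were at 2.27 CPM or less in the control libraries, where *Irf8* was at 471 to 604 CPM, and 0610040F04Rik was high in the libraries where *Bhlhe40* was high.

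*Bhlhe40* encodes a repressor induced by T cell receptor signalling. It was at 269, 81.6 and 75.5 CPM in the resting libraries and at 716, 820 and 709 CPM in the control libraries. Resting library 1 was over 3 times the other resting libraries, but all control libraries were above it. The gene rose with activation by 2.40 ± 0.56 log2 units, or 5.26-fold (edgeR adjusted p = 0.00966), and by 3.25 ± 0.50 (adjusted p = 0.0032) without resting library 1. The TEPP-46 libraries were at 784, 210 and 422 CPM. Library 1 lay within the range of the controls, and library 4 was below resting library 1.

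The log2 difference of *Bhlhe40* was -0.67 ± 0.53 between TEPP-46 and control cells (edgeR adjusted p = 0.402, 95% interval -1.84 to 0.51) and 1.73 ± 0.55 between TEPP-46 and resting cells (adjusted p = 0.0714, interval 0.52 to 2.94). The second passed the threshold in 7 of 21 alternatives, among them those without resting library 1 (2.58, adjusted p = 0.0171), without TEPP-46 library 4 (2.08, 0.0286) and in DESeq2 (1.73, 0.013). Without TEPP-46 library 1 it was 1.14 (adjusted p = 0.151), and the first was -1.25 (0.0928). The first passed the threshold only with library quality weights (-0.85, 0.0147), among the alternatives run. The antisense gene 0610040F04Rik shares 118 exonic bases with *Bhlhe40* and held 1282 counts over the 9 libraries. It was at 23.5, 5.81 and 3.46 CPM in resting, 51.8, 71.5 and 65.5 in control and 59.7, 13.9 and 34.9 in TEPP-46 libraries. The sources used here give no strand setting for the counting, so reads within those shared bases, out of 4705 exonic bases of *Bhlhe40*, cannot be assigned to one of the pair.

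*Nfil3* encodes a repressor of the basic leucine zipper class. It was at 35, 19.0 and 21.6 CPM in resting, 120, 133 and 130 CPM in control, and 48.1, 27.7 and 36.2 CPM in TEPP-46 libraries. The control libraries lay above all others, whereas TEPP-46 and resting libraries overlapped. The gene rose with activation by 2.33 ± 0.29 log2 units, or 5.04-fold (edgeR adjusted p = 0.000636). It fell in TEPP-46 against control cells by 1.76 ± 0.29 log2 units, a 3.40-fold lower level (adjusted p = 0.00529, 95% interval -2.40 to -1.13). Against resting cells the log2 difference was 0.57 ± 0.28 (adjusted p = 0.235, interval -0.06 to 1.197). It passed the threshold in 2 of 21 alternatives, with library quality weights (0.79, adjusted p = 0.0177) and without resting library 1 and TEPP-46 library 4 together (1.05, 0.0176).

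*Prdm1*, which encodes BLIMP-1, was near the limit of detection. It held 13, 10 and 6 counts in resting, 5, 11 and 2 in control, and 7, 0 and 10 in TEPP-46 libraries, or at most 3.24 CPM. The groups overlapped, and a count of 3 corresponded to 0.604 to 1.26 CPM. The log2 difference was -0.56 ± 0.85 with activation (edgeR adjusted p = 0.648, 95% interval -2.44 to 1.32) and 0.29 ± 0.89 for TEPP-46 against control cells (adjusted p = 0.845, interval -1.68 to 2.25), so a difference was not detectable at this depth.

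Between TEPP-46 and control cells, then, *Batf3* and *Nfil3* fell, 2 of the 7 genes, and none rose. Of all genes tested, 6.43% were called lower and 9.72% higher (16.2% in either direction). Both genes had groups that did not overlap, as did 39.7% of all genes tested in either direction. Both were called in each of the 21 alternatives, with log2 fold changes of -6.79 to -4.65 for *Batf3* and -1.998 to -1.59 for *Nfil3*. Wherever a filter on low counts was used, *Batf3* passed it only through the control libraries, where it was high. Against resting cells, 2 of the 7 genes were called higher in TEPP-46 cells (*Irf4* and *Irf8*) and none lower, beside 6.37% and 3.92% of all genes tested (10.3% in either direction), and 26.8% of genes had groups that did not overlap. The comparisons share groups, so their values are given side by side.

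**Figure D3:**
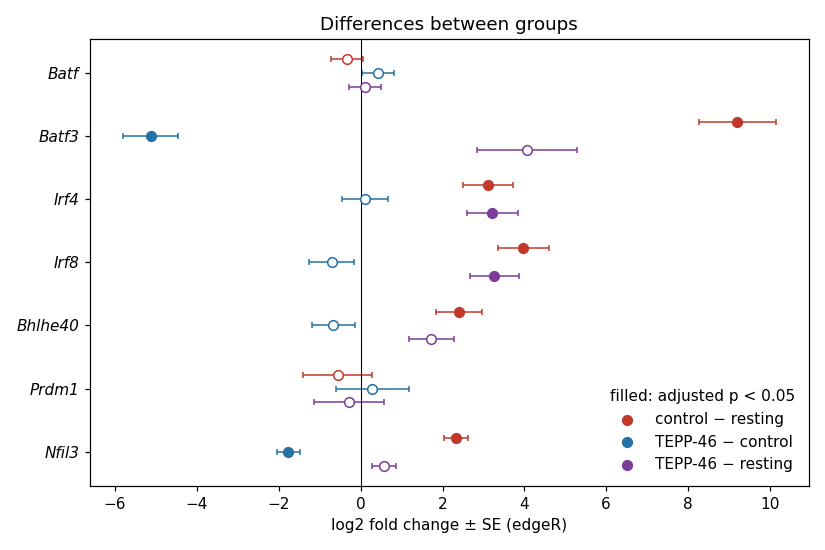
Log2 fold change of each gene (horizontal axis, edgeR) in the 3 comparisons, with bars for the SE (n = 3 per group) and filled points for an adjusted p under 0.05. *Batf3* and *Nfil3* have filled points below 0 for TEPP-46 minus control, and the other 5 genes have open points there.

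The spread within TEPP-46 cells differed among the genes. The highest TEPP-46 library was 5.49 times the lowest for *Irf4*, 5.71 times for *Irf8*, 3.74 times for *Bhlhe40* and 1.74 times for *Nfil3*. The SD of log2 CPM was 1.28, 1.34, 0.95 and 0.39 for these genes in TEPP-46 cells, against 0.60, 0.19, 0.12 and 0.08 in control cells. Library 1 was the highest of the TEPP-46 libraries for all 4 genes and for *Batf3*. For *Batf*, whose highest TEPP-46 library was 3.06 times the lowest, and for *Prdm1*, library 5 was the highest. The TEPP-46 concentration of each library is not given, and the part of dose in this spread was not tested.

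Levels of different genes were compared per kilobase of merged exons. In resting cells the order of mean CPM per kb was *Bhlhe40* (30.2), *Batf* (24.1), *Nfil3* (12.4), *Irf8* (4.74), *Irf4* (4.37), *Prdm1* (0.392) and *Batf3* (0.0451). The libraries of *Bhlhe40* and *Batf* overlapped, as did those of *Batf* and *Nfil3* and of *Irf8* and *Irf4*. In control cells *Bhlhe40* (159) led *Irf8* (74.3), *Nfil3* (62.9), *Batf3* (39.6), *Irf4* (37.8), *Batf* (19.2) and *Prdm1* (0.261). Here *Irf8* (66.8 to 85.6) lay above *Nfil3* (59.0 to 65.7), and *Batf3* (33.9 to 49.3) overlapped *Irf4* (24.2 to 55.5). In TEPP-46 cells the order was *Bhlhe40* (100), *Irf8* (45.6), *Irf4* (40.5), *Batf* (25.7), *Nfil3* (18.4), *Batf3* (1.01) and *Prdm1* (0.308). Neighbours from *Bhlhe40* down to *Nfil3* overlapped in TEPP-46 cells.

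The 16 relatives and partners of these proteins, all tested, comprised other BATF and IRF genes, JUN genes, PU.1-type cofactors, *Bhlhe41* and genes of IRF2-binding proteins. With activation 2 rose and 7 fell (median log2 fold change -1.10), beside 15.5% of all genes tested called higher and 15.8% lower. *Jun*, which encodes a dimer partner of BATF, fell by 3.47 ± 0.41 log2 units (edgeR adjusted p = 0.000486), and *Irf9*, of the interferon-activated ISGF3 complex, fell by 1.21 ± 0.19 (adjusted p = 0.00156). Between TEPP-46 and control cells 5 rose and none fell (median 0.94), beside 9.72% of all genes tested called higher and 6.43% lower. *Irf9* was at 68.8 to 71.1 CPM in the control libraries and 175 to 216 CPM in the TEPP-46 libraries, and rose by 1.49 ± 0.19 log2 units (adjusted p = 0.00233). *Irf1*, an interferon-induced activator, was at 167, 116 and 135 CPM in control and 474, 431 and 412 CPM in TEPP-46 libraries, and rose by 1.65 ± 0.27 (adjusted p = 0.00516). *Irf1* and *Irf9* thus did not overlap between these groups, like 39.7% of all genes tested, whereas *Irf4* and *Irf8* overlapped.

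Of 20 other effector regulators 19 were tested. With activation 5 rose and 2 fell (median 0.20), beside 15.5% of all genes tested called higher and 15.8% lower. *Runx3*, a regulator of cytotoxic and Th1 fates, rose by 2.10 ± 0.29 log2 units (edgeR adjusted p = 0.00108), and *Id2*, an inhibitor of E proteins, fell by 2.09 ± 0.29 (adjusted p = 0.00104). Between TEPP-46 and control cells 5 rose and none fell (median 0.47), beside 9.72% of all genes tested called higher and 6.43% lower. Those that rose included *Ikzf3* (1.84 ± 0.29, adjusted p = 0.00514) and *Maf* (2.87 ± 0.51, adjusted p = 0.00788). They encode the zinc finger protein Aiolos and the leucine zipper protein c-MAF.

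The regulators that oppose effector differentiation and maintain naive or memory cells numbered 11, all tested. With activation none rose and 6 fell (median -1.44), beside 15.5% of all genes tested called higher and 15.8% lower. *Bcl6*, the repressor that opposes BLIMP-1, fell by 2.56 ± 0.38 log2 units (edgeR adjusted p = 0.00141), and *Tcf7*, which encodes TCF-1, fell by 2.11 ± 0.32 (adjusted p = 0.00155). Between TEPP-46 and control cells 6 rose and none fell (median 1.19), beside 9.72% of all genes tested called higher and 6.43% lower. *Bcl6* was at 11.1, 15.8 and 9.74 CPM in resting, 1.47, 2.88 and 1.77 in control and 20.6, 21.8 and 25.6 in TEPP-46 libraries. It rose by 3.45 ± 0.39 log2 units against control cells (adjusted p = 0.00159), and *Tcf7* rose by 2.30 ± 0.33 (adjusted p = 0.00315). B cells also express *Bcl6*, and 7 of the 10 tested B cell markers rose in the same comparison (median 3.87). The part of the markers in this result was not tested.

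Of 28 reported targets of BATF, IRF4, BHLHE40, BLIMP-1 or NFIL3, 19 were tested. With activation 12 rose and 3 fell (median 2.39), beside 15.5% of all genes tested called higher and 15.8% lower. *Lag3*, an inhibitory receptor, rose by 5.80 ± 0.38 log2 units (edgeR adjusted p = 6.23e-05), and *Socs2*, a cytokine signalling inhibitor, by 4.46 ± 0.40 (adjusted p = 0.000167). Between TEPP-46 and control cells 3 rose and 2 fell (median -0.35), beside 9.72% of all genes tested called higher and 6.43% lower. *Socs2* was at 148, 181 and 159 CPM in control and 44.8, 25.6 and 27.5 CPM in TEPP-46 libraries, and fell by 2.31 ± 0.36 log2 units (adjusted p = 0.00455). *Lag3* was at 690, 994 and 890 CPM in control and 968, 1322 and 1370 CPM in TEPP-46 libraries, which overlapped. The list counts for TEPP-46 against control depend in part on calls that some alternatives lost. Among the first 4 genes of each list by adjusted p, of 21 alternatives *Irf2* lost its call in 7, *Cxcr5* in 6, *Il2ra* in 5, *Jun* in 4, *Id2* and *Ets1* in 3 each, and *Myb* and *Bach2* in 2 each.

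**Figure D4:**
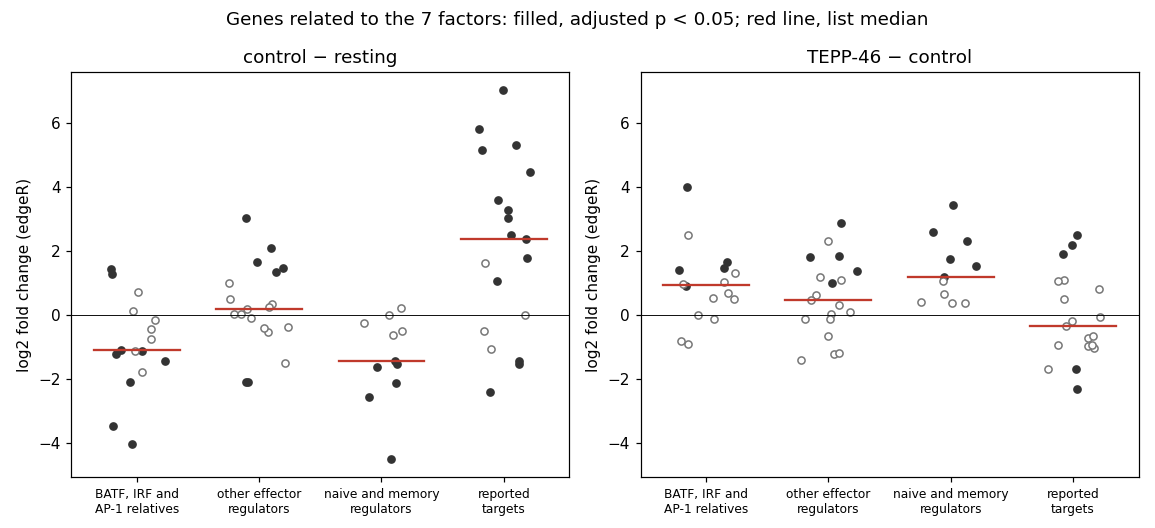
Log2 fold change (vertical axes, edgeR) of each tested gene of the 4 related lists, for control minus resting (left) and TEPP-46 minus control (right); points are genes, filled where adjusted p is under 0.05, and red lines are list medians. The naive and memory regulators have a median of -1.44 on the left and 1.19 on the right, where no filled point of that list lies below 0.

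Across the 9 libraries, which share their groups, the genes whose log2 CPM was most like each member's were described by Pearson correlation. For *Batf3* they were *St6galnac6* (0.991), *Stc2* (0.990) and *Wdr76* (0.989), and for *Nfil3* they were *Pi4k2b* (0.982), *Tbc1d31* (0.982) and *Tspan3* (0.980). For *Irf4* they were *Mlkl* (0.979), *Acsl4* (0.974) and *Lactb2* (0.973), and for *Irf8* they were *Fads2* (0.990), *Ccdc50* (0.987) and *Gzmb* (0.987). *Bhlhe40* was nearest to *Rnf157* (0.982), *Cdkn1a* (0.980) and *Tnfrsf9* (0.978). The highest values were lower for *Batf*, with *Tmem62* (0.911), *Tmem230* (0.902) and *Dgkd* (0.892), and for *Prdm1*, with *Zfp46* (0.909), *Trappc13* (0.902) and *Mef2a* (0.902). Among the members, the correlation was 0.969 between *Batf3* and *Nfil3*, 0.952 between *Irf4* and *Irf8*, and -0.138 between *Batf* and *Batf3*.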

How the data were processed

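The 7 members and the related gene lists were chosen with earlier results of these data known. The authors deposited whole-number read counts per Ensembl gene for the 9 libraries in a single table, without normalization. GRCm38 and DESeq2 are named per the submitters' processing notes; not given in the sources used here are the aligner, counter, annotation release and strand setting. Of 47937 identifiers, 47224 were paired with a GENCODE M21 symbol through the identifier without its version.

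Library totals ran from 2397304 to 5030643 counts, and 3 counts corresponded to 0.604 to 1.26 CPM (counts per 1000000, on TMM-scaled library totals). Counting error alone sets these floors and the counting intervals. The filter of edgeR, filterByExpr (minimum count 10, minimum total 15), kept 12536 of 23436 genes that had any count. All 9 libraries were fitted by group with edgeR 4.0.16 in R 4.3.3 (glmQLFit, glmQLFTest, two-sided, Benjamini-Hochberg over 12536 genes, threshold 0.05, common dispersion 0.1086). A prior count of 2 entered log2 CPM. Levels per kilobase used merged GENCODE exons.

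Alternatives were DESeq2 1.42.0, limma-voom (limma 3.58.1) without and with quality weights, 4 other scalings, 2 other filters, only the groups compared, a replicate block, and each library left out. A further one, leaving out 2 libraries together, was chosen after seeing the data. The fitting code was tested on simulated data. All 7 members were named; up to 4 genes of each related list were named in order of adjusted p, and the 3 genes most like each member by Pearson correlation over 9 libraries among genes with a mean of at least 10 CPM. Some items are not reported here. Same-numbered libraries did not deviate together (correlations of -0.123 to 0.089), so the numbers were not treated as pairs.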

Additional observations from a re-analysis of the deposited data

How the results depend on the processing

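The 5 activation calls and the falls of *Batf3* and *Nfil3* with TEPP-46 held in each of 21 alternatives, and no called value changed sign. Differences that had not passed the test did: TEPP-46 against control ran from -1.01 to 0.50 for *Irf4* and, over 18 alternatives, from -0.43 to 1.09 for *Prdm1*, and TEPP-46 against resting from -0.31 to 0.42 for *Batf* and from -0.997 to 0.391 for *Prdm1* (18). *Prdm1* was tested in 19 alternatives for activation, and *Batf3* in 20 for TEPP-46 against resting. Without the filter on low counts, 4 members were higher in TEPP-46 than in resting cells. The main fit called 2 members and 798 genes higher and 491 genes lower in that comparison. With DESeq2, 4 members and 1207 genes were higher and 883 lower in that comparison, and 1390 genes were lower in TEPP-46 than in control cells. With library quality weights, the activation calls were 3603 higher and 3712 lower, TEPP-46 against control gave 1 member higher and 4 lower with 3186 genes higher and 2978 lower, and TEPP-46 against resting gave 4 members higher with 1803 genes higher and 1557 lower. With only the groups compared, the last comparison gave 246 higher and 154 lower. Leaving out resting library 1 and TEPP-46 library 4 together, an alternative added after seeing the data, gave 5 members higher and 836 genes lower there. The cause of these shifts was not tested.

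Leaving out each library in turn, activation gave 1226 to 2563 genes higher and 1090 to 2631 lower. TEPP-46 against control gave 258 to 2274 higher and 137 to 2133 lower, with 2 to 3 members lower, and TEPP-46 against resting gave 270 to 1081 higher and 156 to 816 lower, with 0 to 4 members higher. The highest counts for TEPP-46 against control came without TEPP-46 library 1, and the 0 came without resting library 5.

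With a replicate block, TEPP-46 against resting gave 456 genes higher and 249 lower, and *Bhlhe40* was called (1.79, adjusted p = 0.0483); the block changed no other member's call. Same-numbered libraries did not correlate in their deviations, so the pairing rests on a number only.

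Scaling by library totals alone moved the median of all genes from 0.04 to -0.09 for TEPP-46 against control, and the share of calls that were higher from 60.2% to 43.8%. Depth limits *Prdm1* in all groups, and *Batf3* outside control cells.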
